A study of Mus musculus with 4 samples.

Results

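H3K9me3 regions that lay in coding exons downstream of gene starts and were free of H3K36me3 were examined in mouse embryonic stem (ES) cells. A region qualified if it was on an autosome, at most 5000 bp wide, overlapped coding sequence, lay more than 1 kb from the start of any annotated transcript and overlapped no H3K36me3 region. Of the 32502 H3K9me3 regions, 32295 were autosomal, 8649 of these overlapped coding sequence, 8422 were within the width limit, 4619 were also far enough from a start, and 3743 remained after H3K36me3 was excluded. They were divided by exon: 899 touched the last coding exon of a gene (24.0%, 95% Wilson interval 22.7 to 25.4%), including 127 in genes with 1 coding exon, and the other 2844 are called earlier. Of these, 2783 lay in earlier coding exons and 61 only in coding exons of other transcripts of a gene, and 37 of the 61 touched the last coding exon of such a transcript. The widest members measured 5000 bp (4 regions) and the narrowest regions left out for width 5200 bp (5 regions). The nearest member was 1003 bp from a start, and 3519 regions failed on this distance alone.

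Chromatin immunoprecipitation with sequencing was performed for H3K9me3 and H3K36me3 in WT and G34R cells, with 1 library for each of the 4 combinations. WT cells were unmodified ES cells of the strain 129S1/SvImJ (H3f3a+/+; H3f3b+/+). G34R cells carried 1 mutant copy of H3f3a (H3f3a+/G34R; H3f3b+/+), introduced by conditional allelic replacement and Cre recombination and expressed from the endogenous H3f3a promoter, so that wild-type H3.3 was still made from the other alleles. All cells were used at fewer than 20 passages. A region was listed where either cell type was enriched, and the lists give positions without read values. The values below therefore describe WT and G34R cells together, no difference between the cell types was analysed here, and depth is unknown. The labelled cell type could not be checked from marker levels for the same reason. Regions are not replicates and several can lie in 1 gene, so intervals cover counting error only and are too narrow where regions share a gene. Bins of 200 bp are not independent either, because 1 region spans several of them, so intervals over bins are also too narrow. No test was made across regions.

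H3K9me3 is the mark of constitutive heterochromatin and is read by HP1 proteins. In ES cells it is known for silencing retrotransposons, imprinted loci and lineage genes through Setdb1 and KRAB zinc finger proteins, and it also covers the exons of many KRAB zinc finger genes themselves. H3K36me3 is laid down by Setd2 behind elongating RNA polymerase and marks the bodies of transcribed genes, and Kdm4 enzymes remove both marks.

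Representative sequences are shown to make the kinds of exon concrete. All are 300 bases of the NCBIM37 assembly (equivalent to mm9), 5′ to 3′ on the strand of the gene, from regions whose central 50 bases occur once in the assembly. The first 3 show whole short exons inside regions in earlier exons, with coding bases in capitals. Exons are numbered from the first coding exon. In Hydin, the gene with the most members, 126 coding bases of exon 3 lie at chr8:112823737-112824036 (plus strand). In Ttn, which had the second most, 267 coding bases lie at chr2:76781241-76781540 (minus strand). In Col14a1, a collagen gene, the exon at chr15:55304358-55304657 (plus strand) has 54 coding bases, and its repeated ggt and gga triplets encode the glycines of the collagen helix.
Hydin: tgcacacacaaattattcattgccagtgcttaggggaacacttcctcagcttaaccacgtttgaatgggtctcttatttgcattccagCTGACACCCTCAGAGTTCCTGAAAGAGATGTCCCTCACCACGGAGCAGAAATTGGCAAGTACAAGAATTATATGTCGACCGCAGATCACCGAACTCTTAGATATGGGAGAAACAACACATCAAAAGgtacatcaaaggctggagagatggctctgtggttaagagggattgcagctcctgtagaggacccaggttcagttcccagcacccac
Ttn: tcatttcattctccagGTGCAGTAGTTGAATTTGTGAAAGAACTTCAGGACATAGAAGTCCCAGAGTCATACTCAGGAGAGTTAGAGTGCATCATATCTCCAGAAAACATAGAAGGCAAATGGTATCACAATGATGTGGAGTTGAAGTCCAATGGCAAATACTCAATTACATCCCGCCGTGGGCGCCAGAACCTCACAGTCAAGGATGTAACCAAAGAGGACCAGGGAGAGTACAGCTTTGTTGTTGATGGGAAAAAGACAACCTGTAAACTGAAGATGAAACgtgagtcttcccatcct
Col14a1: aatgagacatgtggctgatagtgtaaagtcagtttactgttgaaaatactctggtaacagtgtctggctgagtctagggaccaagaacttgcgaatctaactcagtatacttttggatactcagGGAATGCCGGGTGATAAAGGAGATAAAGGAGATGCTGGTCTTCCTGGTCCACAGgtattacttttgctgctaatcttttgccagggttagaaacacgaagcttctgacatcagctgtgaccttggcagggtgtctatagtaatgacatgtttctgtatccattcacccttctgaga

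The next 2 stretches come from wholly coding regions, and each CG dinucleotide is in capitals. The Apc2 stretch at chr10:79775813-79776112 (plus strand) lies in the longest such region in a last coding exon and holds 22 CG in 66.7% G+C. The Frem3 stretch at chr8:83137048-83137347 (plus strand) lies in the longest such region in an earlier exon and holds 10 CG in 50.0% G+C.
Apc2: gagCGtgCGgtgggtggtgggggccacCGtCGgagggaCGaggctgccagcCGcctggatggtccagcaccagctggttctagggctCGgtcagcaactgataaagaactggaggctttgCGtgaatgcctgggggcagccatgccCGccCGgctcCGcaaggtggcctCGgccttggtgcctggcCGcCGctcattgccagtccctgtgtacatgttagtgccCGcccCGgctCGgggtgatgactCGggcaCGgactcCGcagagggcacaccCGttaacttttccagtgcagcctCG
Frem3: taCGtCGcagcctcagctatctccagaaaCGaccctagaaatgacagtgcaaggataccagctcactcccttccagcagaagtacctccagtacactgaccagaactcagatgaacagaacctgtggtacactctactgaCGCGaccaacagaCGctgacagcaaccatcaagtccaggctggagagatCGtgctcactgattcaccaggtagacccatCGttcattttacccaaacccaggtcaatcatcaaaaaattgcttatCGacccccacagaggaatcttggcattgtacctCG

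The last 2 stretches are from the last coding exons of zinc finger genes. Capitals mark the codons of the linker that joins neighbouring fingers, where it matches the amino acids TGEKP or TGERP. Variants of this linker stay in lower case and are not counted here. Zfp606 at chr7:13078629-13078928 (plus strand) had the lowest G+C of the wholly coding regions in Zfp genes, and the stretch encodes 3 such linkers in 42.0% G+C. Zfp775 at chr6:48569401-48569700 (plus strand) had the highest, and the stretch encodes 2 linkers in 62.3% G+C. Both are the stretch of their region with the most linkers (most CG for the previous pair), so they are not typical of all bases in it.
Zfp606: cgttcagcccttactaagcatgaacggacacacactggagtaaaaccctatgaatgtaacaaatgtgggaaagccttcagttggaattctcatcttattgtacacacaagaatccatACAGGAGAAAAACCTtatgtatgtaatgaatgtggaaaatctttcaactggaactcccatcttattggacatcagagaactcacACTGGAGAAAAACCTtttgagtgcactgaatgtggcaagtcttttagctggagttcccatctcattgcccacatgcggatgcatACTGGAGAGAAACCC
Zfp775: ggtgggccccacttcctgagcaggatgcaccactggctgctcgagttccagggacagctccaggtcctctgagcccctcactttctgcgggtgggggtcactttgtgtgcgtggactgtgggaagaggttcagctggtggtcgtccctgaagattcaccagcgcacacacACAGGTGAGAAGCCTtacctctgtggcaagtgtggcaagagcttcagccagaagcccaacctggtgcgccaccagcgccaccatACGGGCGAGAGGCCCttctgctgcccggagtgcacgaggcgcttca

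The first question was whether last coding exons carried more of these regions than earlier ones. Last coding exons had 7.30% of their eligible coding bases inside members, compared with 3.43% in earlier coding exons, a ratio of 2.12. It was 4.32 when coding sequence had to make up at least 50% of a region, where 52.5% of members touched a last coding exon. This setting favours long exons, because the listed regions were at least 600 bp wide, and last coding exons were longer than earlier ones. The eligible bases were not restricted in the same way. With the rule as given, the ratio was above 1 on 19 of 19 autosomes and ranged from 1.41 on chromosome 4 to 3.92 on chromosome 10. H3K36me3 regions chosen by the same rule with the marks exchanged (12766 regions) covered 13.5% of the bases of both kinds of exon, a ratio of 0.999. The 876 H3K9me3 regions that passed the rule but overlapped H3K36me3 covered 1.96% of last and 0.810% of earlier coding bases, a ratio of 2.42. Thus, pooled over exon lengths, both sets of H3K9me3 regions covered last coding exons to a greater extent than earlier ones. By regions the marks differed less: 24.0% of members and 20.6% of the H3K36me3 counterpart touched a last coding exon (difference 3.45 percentage points, 95% Newcombe interval 1.93 to 5.01). For eligible coding bins of 200 bp the share was 16.4%. These shares are not like for like, because a wider stretch can touch more exons. The median width was 800 bp for members and 1200 bp for the counterpart.

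Exon length moved with this difference. The median coding length was 165 bp for eligible last coding exons and 125 bp for earlier ones, and coverage rose with length in both classes. Over all eligible exons, members held 2.14% of the bases of exons of up to 150 bp, 3.06% from there to 300 bp, 5.97% to 600 bp, 7.44% to 1200 bp and 9.93% above 1200 bp. Within these length classes the ratio of last to earlier exons was 1.12, 1.10, 1.35, 1.13 and 1.24, in the order given. In the shortest class, 2.27% of last and 2.28% of earlier exons were touched by a member (difference −0.0131 percentage points, 95% Newcombe interval −0.335 to 0.352). In the longest class, 17.1% of last and 15.1% of earlier exons were touched, and the interval of the difference (−1.42 to 5.25) included 0. The interval lay above 0 only in the class from 300 to 600 bp, where 8.11% and 6.50% of exons were touched (difference 1.61, interval 0.172 to 3.11). Most of the 2.12-fold ratio was therefore not seen between exons of like length. The H3K36me3 counterpart varied less, with 13.0, 13.4, 14.6, 15.0 and 13.5% of bases covered in the same order of length. In earlier exons it was 12.8, 13.2, 14.7, 18.2 and 14.8%, and in last exons 15.8, 15.1, 14.4, 12.3 and 12.4%. In exons of up to 300 bp it was thus also higher in last than in earlier exons. Without genes of 1 coding exon, last exons had 15.8, 15.1, 15.3, 13.6 and 15.3% in the same order. These exceeded earlier exons in every class except 600 to 1200 bp. Over all lengths they had 14.9%, beside 13.5% in earlier exons.

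**Figure D1:**
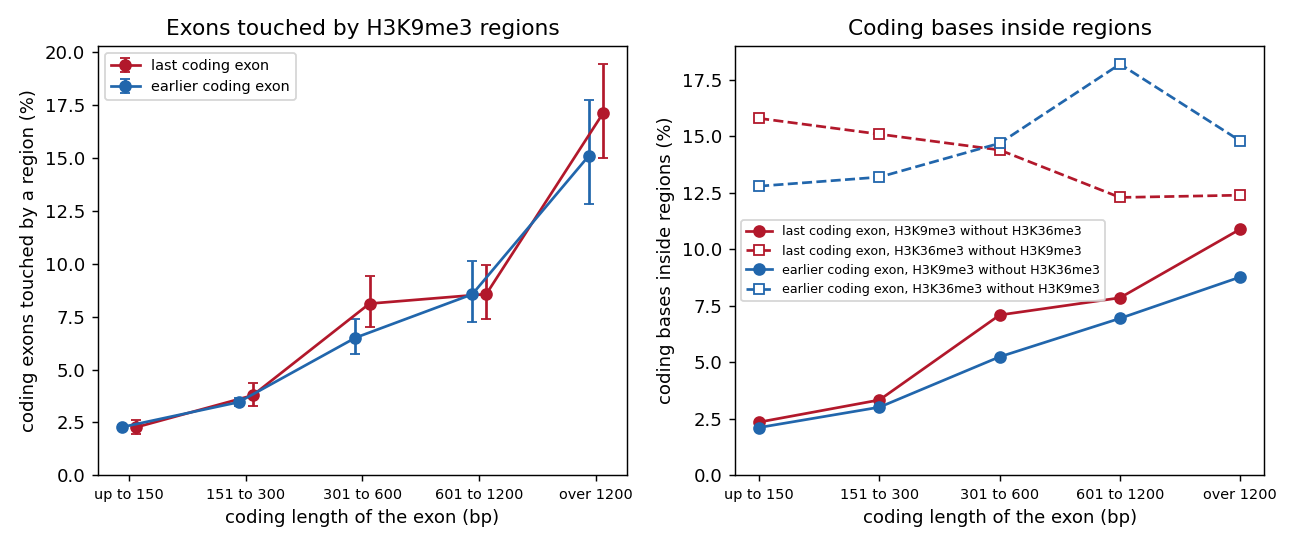
Left, percent of coding exons touched by a member (95% Wilson intervals) by coding length of the exon, for last and earlier coding exons. Right, percent of eligible coding bases inside members and inside H3K36me3 regions chosen with the marks exchanged. Coverage by H3K9me3 rises from 2.14% to 9.93% over the length classes, last and earlier exons run close together, and H3K36me3 lies between 12.3% and 18.2% in all classes.

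G+C also moved with exon class. Members had a median G+C of 50.5% (quartiles 46.3 and 54.7%), those in last coding exons 52.5% and those in earlier exons 50.0%, and noncoding H3K9me3 regions 46.1%. Eligible coding bins of 200 bp, with or without H3K36me3, had a median of 48.5% G+C. Among bins free of H3K36me3, the share inside H3K9me3 regions rose with G+C in every class of sequence. For last coding exons it went from 2.17% under 35% G+C to 29.9% at 65% or more, for earlier coding exons from 0.523% to 20.6%, and for noncoding bins from 0.956% to 10.0%. Earlier coding bins were below noncoding bins at low G+C (ratio 0.547 under 35%) and above them at high G+C (2.05 at 65% or more). Last coding bins exceeded earlier ones in each G+C class, by 1.44 to 4.16 times.

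When exon length and G+C were combined, last coding exons were higher in 7 of 9 combinations. The interval of the difference lay wholly above 0 in 5 and wholly below 0 in 1. Several neighbouring bins can come from 1 region, so these intervals are too narrow and their counts are descriptive only. In exons above 1200 bp with 55% G+C or more, 26.1% of last and 18.5% of earlier bins were in members (difference 7.57 percentage points, Newcombe interval 5.05 to 10.1). At 45 to 55% G+C in exons of the same length, the shares were 10.2% and 12.3% (difference −2.08, interval −3.84 to −0.338). In exons of up to 300 bp at 45 to 55% G+C, they were 3.62% and 3.69%. Over the 9 combinations the ratio was between 0.831 and 1.66. G+C can affect the yield of ChIP-seq libraries, no input library was among the files used, and its part in these shares was not tested.

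**Figure D2:**
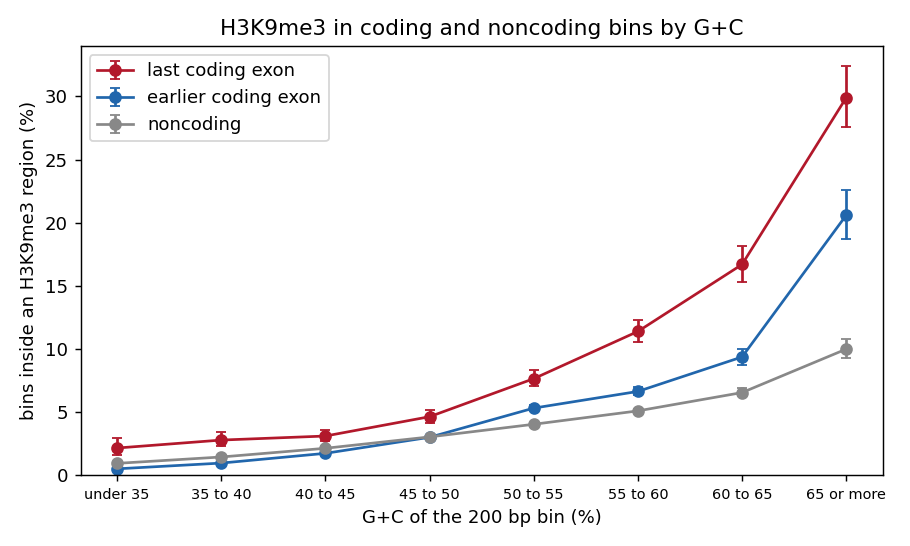
Percent of 200 bp bins inside H3K9me3 regions (95% Wilson intervals) by G+C of the bin, for last coding exons, earlier coding exons and noncoding sequence more than 1 kb from starts and free of H3K36me3. All 3 lines rise, last coding exons reach 29.9% and noncoding bins 10.0% in the highest class.

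CG dinucleotides, the substrate of DNA methylation, were counted in 200 bp windows that touched a coding exon of the transcript with the longest coding sequence (the motif is CG, which reads the same on both strands). At least 5 CG were present in 51.9% of windows inside members and in 27.5% of those outside. The difference was smaller between windows of like G+C: 36.2% and 31.0% at 45 to 55% G+C, and 10.2% and 7.18% under 45%. It was 76.3% and 61.5% at 55% or more. Members in last coding exons had a median of 2.17 CG per 100 bp and those in earlier exons 1.50. The highest density, 14.7 per 100 bp, was in a last coding exon.

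Members differed in shape between the exon classes. The median width was 800 bp in both, but 33.9% of members in last coding exons and 42.9% of those in earlier exons had the smallest width of 600 bp (difference −9.01 percentage points, Newcombe interval −12.5 to −5.37). Coding sequence made up a median of 39.8% of a member in last coding exons and 18.7% in earlier exons, and 12.6% and 3.38% of members were wholly coding. Of the 899 regions in last coding exons, 641 (71.3%) covered the end of the coding sequence and 147 (16.4%) also touched an earlier coding exon. The 685 members that touched more than 1 coding exon of a gene show that a region did not always belong to a single exon.

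Around the centres of members, the coding share and G+C rose together. In earlier exons, coding sequence was present at 27.2% of centres and at 8.86% of positions 2 kb upstream, while G+C was 50.4% at the centre and 47.4% at that distance. In last coding exons, coding sequence peaked at 52.5% 100 bp upstream of the centre and fell to 4.83% at 2 kb downstream, beyond the end of most coding sequences, and G+C fell from 53.3% to 46.1%. A peak of coding sequence is set by the rule, which required coding overlap, and only its shape and G+C are measurements.

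**Figure D3:**
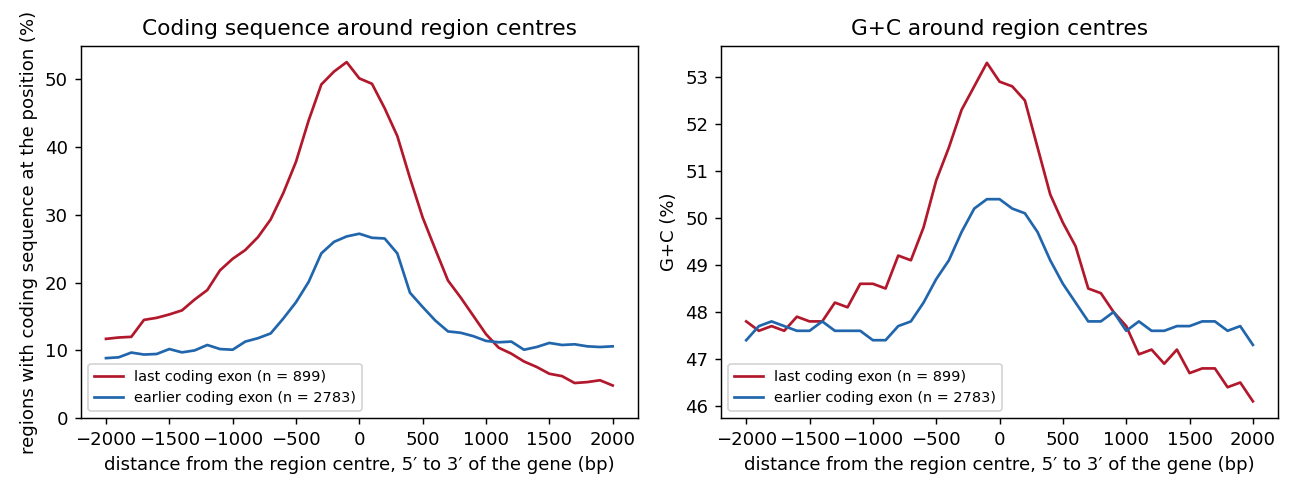
Percent of members with coding sequence (left) and percent G+C (right) in 100 bp steps around the region centre, in the direction of the gene, for 899 members in last and 2783 in earlier coding exons with a known strand. Coding sequence peaks at 52.5% in last coding exons, 100 bp upstream of the centre, and at 27.2% in earlier exons, at the centre, and G+C peaks with it at 53.3% and 50.4%.

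Along the coding sequence, coverage by members rose gradually up to part 8 of 10 and was lower in the last parts. When each coding sequence was divided into 10 equal parts, 3.09% of the coding bases in part 1 were in members. The share was 4.24% in part 6, 4.62% in part 8, 4.38% in part 9 and 4.33% in part 10. The H3K36me3 counterpart rose from 11.3% to 15.6% over the same course.

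The central 50 bases of members were found once in the assembly for 96.4%, the same share as for eligible coding bins (96.4%). It was 94.4% in last and 97.1% in earlier coding exons (difference −2.64 percentage points, Newcombe interval −4.43 to −1.16). Copies that differ by a base are not counted by this measure, and reads from near-identical genes can be placed on either copy.

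Individual members show the range of sequence that was marked. The region with the most coding bases covered the last exon of Tchh, which encodes trichohyalin, a hair follicle protein with tandem repeats (chr3:93247401-93252400, 5000 bp, 4573 coding bases, 58.5% G+C). Its central 50 bases occur 4 times in the assembly, so reads in the repeats could have come from more than 1 place. Among members in last coding exons, Elfn2 and Islr2, which encode neuronal membrane proteins with leucine-rich repeats, followed with 2469 coding bases at chr15:78501201-78505600 and 2243 at chr9:58045001-58048200. In Zfpm1, which encodes the GATA cofactor FOG1, exons 7 to 10 of 10 were covered with 2231 coding bases (chr8:124858201-124862200, 62.3% G+C).

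Other wide members in last coding exons held mainly noncoding sequence. At Wnt3, a secreted signalling protein gene, a region of 4800 bp (chr11:103670801-103675600) held 743 coding bases of exons 3 and 4. B3gnt3, a glycosyltransferase gene, had a region of the same width with 1116 coding bases (chr8:74214801-74219600). Rdh9 and Cyp3a41a, which encode a retinol dehydrogenase and a cytochrome P450, lie in clusters of similar genes, and the centres of their regions (chr10:127225001-127229800 and chr5:146505601-146510600) occur 2 times each in the assembly. Cyp3a41a was at 38.5% G+C, compared with 58.1% at Wnt3.

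In earlier coding exons, the member with the most coding bases lay in exon 1 of Pcdh17, a protocadherin gene (chr14:84844801-84849200, 4400 bp, 2559 coding bases). Tdrd6, a germ cell tudor protein gene, had 2145 of 2200 bp coding in its first coding exon (chr17:43761001-43763200), and Frem3, which encodes an extracellular matrix protein, had 2000 of 2000 bp (chr8:83136401-83138400). A region of 2600 bp in Ttn (chr2:76752001-76754600) held 2364 coding bases, all from exons of transcripts other than the one with the longest coding sequence. Muc6, a gastric mucin gene, had 1995 coding bases covered in exons 31 and 32 of 34 (chr7:148823801-148826000), and the central 50 bases of that region occur 2 times. The exons covered here were long, whereas the widest members in earlier exons surrounded short exons.

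The widest members in earlier exons had small coding shares apart from St6galnac1. This sialyltransferase gene had a region of 5000 bp over exons 2 to 8 of 9, with 1379 coding bases (chr11:116625601-116630600). Kcnma1, a calcium-activated potassium channel gene, had a region of equal width around exon 5 of 30 with 76 coding bases (chr14:24357801-24362800). At Sim1, a transcription factor gene of the hypothalamus, 83 of 4800 bp were coding (chr10:50620201-50625000), and at Dnahc12, an axonemal dynein gene, 122 of 4800 bp (chr14:27574601-27579400). A region of 4600 bp at Rdh9 (chr10:127219001-127223600) held 47 coding bases of another transcript. For such regions the coding exon is a small part of what was marked.

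At the level of genes, 2432 of 18400 protein-coding autosomal genes with eligible coding sequence had a member (13.2%). In the last coding exon 865 genes had one (4.70%) and in earlier coding exons 1893 (10.3%), with 326 genes in both groups. Most of the genes (1710) held 1 member, 661 held 2 to 4 and 61 held 5 or more. The share of genes with a member rose with gene length, from 8.19% under 10 kb to 26.0% above 100 kb, which came from earlier exons (4.46% and 23.7%). For last coding exons the share was 5.36% under 10 kb and 4.75% above 100 kb.

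Hydin, which encodes a protein of the central apparatus of motile cilia, had 23 members, the largest number. They touched 27 of its 86 coding exons and held 30.6% of its coding bases (chr8:112790877-113134153). The widest, of 3000 bp, surrounded exon 9 with 184 coding bases. H3K9me3 was not confined to these exons: 64 regions lay in the gene, covering 31.6% of the coding bases and 17.4% of the other bases. Hydin had no H3K36me3 region and no H3K9me3 region within 1 kb of its start.

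Ttn, which encodes the sarcomere protein titin, had 15 members, in addition to 2 over exons of other transcripts, the one described above and another of 600 bp. They held 9.73% of 105639 coding bases, compared with 2.61% of the other bases of the gene in H3K9me3 regions. These other bases include coding exons of other transcripts, among them the 2364 and 600 coding bases of the 2 further members. Dnahc6, an axonemal dynein heavy chain gene like Dnahc12, had 9 members with 11.7%. Hydin and Dnahc6 are known for their role in motile cilia, and Ttn for its role in muscle.

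Odz2, a teneurin gene of neuronal adhesion, had 9 members in 9 of 29 coding exons. They held 33.0% of the coding bases, whereas 3.07% of the other bases of this gene of 1229 kb were in H3K9me3 regions, a ratio of 10.7. This was the largest such ratio among the 10 genes with the most members. Sdk1 and Sdk2, which encode related synaptic adhesion proteins of the immunoglobulin superfamily, had 8 and 9 members. Their ratios were 3.82 and 1.34. Coding coverage was similar in Sdk1 and Sdk2 (25.6% and 27.2%). The other bases differed, with 6.71% of 967518 and 20.3% of 284145 in H3K9me3 regions. The 10 genes were chosen by their members in coding exons, which favours ratios above 1.

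Pkd1l2, a polycystin family gene, had 11 members, and Kcnu1, a potassium channel gene of sperm, had 8. In both, coding and other bases were covered to a similar extent (ratios 1.09 and 1.05). Plcg2, a phospholipase C gene of blood cell signalling, had 9 members, and 49.0% of its coding bases were in H3K9me3 regions of any kind. It also had 4800 bp of H3K36me3, which the members by definition did not overlap. Of the 10 genes, Hydin, Pkd1l2, Plcg2 and Kcnu1 are on chromosome 8.

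Genes with members often had H3K9me3 at their start as well. An H3K9me3 region lay within 1 kb of a start of the gene in 49.5% of the 2432 genes (Wilson interval 47.5 to 51.5%) and in 21.8% of the 15968 other eligible genes. The shares were 45.2% and 18.3% for genes under 10 kb and 65.8% and 40.5% for those above 100 kb, so genes with members were higher at each end of the length range. An H3K36me3 region lay somewhere in 12.5% of genes with members and in 43.5% of the others. The rule removed regions that overlapped H3K36me3 and thereby contributes to that difference.

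Gene families were compared by the share of their eligible genes that held a member, beside 13.2% of all eligible genes. Collagen and laminin genes, which encode extracellular matrix chains with many short exons, had members in 26 of 53 (49.1%, Wilson interval 36.1 to 62.1%). All 26 had them in earlier exons, beside 10.3% of all eligible genes, and 3 in the last (5.66% of the 53, beside 4.70%). Lama3 was the only laminin gene among the 26. In Col2a1, the collagen gene of cartilage, 5 members touched 19 of 54 coding exons, and in Col6a5 5 members held 27.8% of the coding bases. Their 16 of 28 genes above 100 kb (57.1%) compare with 26.0% of all eligible genes of that length.

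Ion channel genes held members in 78 of 172 (45.3%, interval 38.1 to 52.8%). Of the 172, 36 had one in the last coding exon (20.9%, beside 4.70% of all eligible genes) and 56 in earlier exons (32.6%, beside 10.3%). The share in any coding exon was 30.8% in those under 10 kb and 51.6% above 100 kb, beside 8.19% and 26.0% of all eligible genes of those lengths. Grin2c, an NMDA receptor subunit gene, had 70.3% of its coding bases in 2 members, 1 over exons 2 to 6 and 1 over exons 11 and 12 of 12. Pooled over gene lengths, channel genes thus exceeded the share of all eligible genes in both exon classes.

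Protocadherin and cadherin genes encode adhesion proteins, with very long exons in protocadherins and many short ones in classical cadherins. They had members in 28 of 65 (43.1%, interval 31.8 to 55.2%). Of these, 19 had them in the last coding exon (29.2%, beside 4.70% of all eligible genes). Of the 28, 12 were Pcdhb genes, a cluster of genes with similar sequences. By gene length, 12 of 25 under 10 kb had a member (48.0%, beside 8.19% of all eligible genes of that length) and 6 of 22 above 100 kb (27.3%, beside 26.0%). Dchs1 had 3 members with 24.9% of its coding bases.

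Dynein, kinesin and myosin genes had members in 37 of 93 (39.8%). Of the 93, 35 had one in earlier exons (37.6%, beside 10.3% of all eligible genes) and 5 in the last (5.38%, beside 4.70%). Myh2 and Myh3, which encode myosin heavy chains of skeletal muscle, had 35.2% and 34.6% of their coding bases in 5 and 6 members. Semaphorin, plexin and ephrin receptor genes, which act in axon guidance, had members in 14 of 41 (34.1%), with Plxna4 at 7 members and Epha8 at 38.0% of its coding bases. Adam and Adamts metalloproteinase genes had members in 18 of 56 (32.1%). In Adam39, a gene with 1 coding exon, a region of 600 bp was wholly coding, and in Adamts15 20.1% of the coding bases were covered.

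Ankyrin, spectrin and related genes had members in 7 of 20, all in earlier exons. The 2 members in Ank2 both lay in its long exon 40 of 48 and were wholly coding. Spnb4, a spectrin gene of the axon initial segment, had 5 members, 1 of which reached 73.7% G+C. Solute carrier and ABC transporter genes had the lowest share of these families, 85 of 405 (21.0%). Of the 405, 18 had a member in the last coding exon (4.44%, near the 4.70% of all eligible genes). In earlier exons 77 had one (19.0%, beside 10.3%). Abcc12 had 7 members with 34.2% of its coding bases, and Slc8a3, a sodium-calcium exchanger gene, had 33.3% in 2. These families were grouped by symbol, and several are long genes, for which the share over all eligible genes was also higher.

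**Figure D4:**
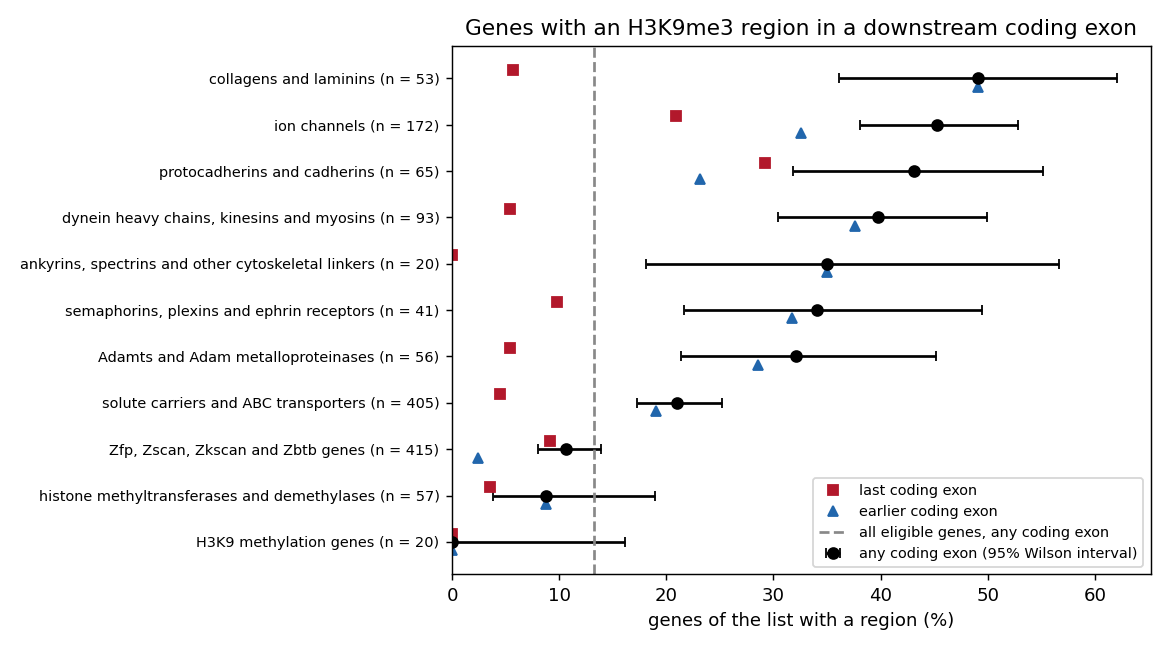
Percent of the eligible genes of each list with 20 or more genes that held a member in any coding exon (black, 95% Wilson intervals), in the last coding exon (red squares) and in an earlier coding exon (blue triangles). The dashed line marks the 13.2% of all eligible genes. Collagens, ion channels and cadherins stand highest, Zfp genes lie near the line with most of their members in the last coding exon, and no gene of the H3K9 methylation list held a member.

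Zinc finger genes showed another pattern. Of 415 eligible Zfp, Zscan, Zkscan and Zbtb genes, 44 had a member (10.6%, interval 7.99 to 13.9%), and these made up 1.81% of genes with members compared with 2.26% of eligible genes. The interval of the 1.81% (1.35 to 2.42) includes the 2.26%. The order also depended on the rule: the share was 3.17% with at least 200 bp of coding sequence required (interval 2.34 to 4.27). With at least 50% coding it was 5.93% (4.30 to 8.14). Without the H3K36me3 exclusion it was 2.51% (2.01 to 3.12, which includes 2.26%). In the last coding exon, which usually encodes the whole array of fingers, 38 had a member (9.16%, beside 4.70% of all eligible genes), and in earlier exons 10 (2.41%, beside 10.3%). The 55 members in these genes ranged from 33.3 to 62.5% G+C with a median of 49.7%, 13 were wholly coding, and the central 50 bases of 3 occurred more than once. Zfp467 had 91.7% of its coding bases in 2 members at up to 58.4% G+C. Zfp606 had 70.7% in 2 members of 35.5 and 37.9% G+C.

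Genes were also grouped by their coding sequence, as those with 3 or more C2H2 fingers found in translation (599 of 18400). A member lay in the last coding exon of 11.0% of these genes and of 4.49% of the others. Among last coding exons above 1200 bp the shares were 16.4% (50 of 304) and 17.1% (141 of 823), so the difference was not seen between long exons. Between 600 and 1200 bp they were 5.52% and 8.65%. Bins of these long exons were also compared by G+C, with intervals that are too narrow because neighbouring bins can share a region. Under 40% G+C, 9.10% of 747 bins in genes with fingers and 2.57% of 584 bins in other genes were in members (intervals 7.24 to 11.4 and 1.56 to 4.19). At 40 to 50% the shares were 9.15% and 6.86%, with overlapping intervals (7.14 to 11.6 and 5.82 to 8.06). At 50% or more they were 27.7% and 20.2%. With bins restricted to those whose central 50 bases occur once, the shares under 40% G+C were 7.81% and 2.93%.

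Members of low G+C in last coding exons included many zinc finger exons. Of 47 members under 40% G+C, 24 were in genes with 3 or more fingers (51.1%), compared with 4.46% of those at 40 to 50% G+C and 6.07% at 50 to 60%. Of all 200 bp bins of last coding exons, 17.1% of those under 40% G+C and 7.06% of those at 40 to 50% lay in such genes. Regions and bins are different units, so the 4.46% and the 7.06% are not compared directly. In bins at 40 to 50% G+C, 7.18% of 849 in genes with fingers and 3.71% of 11179 in other genes were in members. Under 40% G+C these shares were 7.88% and 1.49%. The central 50 bases of 8 of the 47 members occurred more than once in the assembly, and 7 of these 8 were in genes with fingers. In earlier exons, 2 of 115 members under 40% G+C were in such genes. Linker codons like those of Zfp606 and Zfp775 above lay whole in 4.80% of the 200 bp windows of last coding exons inside members (124 of 2586) and in 2.92% of those outside (899 of 30838). These windows were not matched for exon length. Among last coding exons above 1200 bp, genes with fingers did not exceed the others in the share with a member (16.4% and 17.1%). The linker was searched by its amino acid pattern in frame, and a match describes the sequence alone.

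Genes of the chromatin pathways themselves could not be told from the 13.2% of all eligible genes at these list sizes. None of 20 eligible H3K9 methylation genes (such as Setdb1, Trim28 and Ehmt2), which allows a share of up to 16.1% by the Wilson interval, none of the 4 Kdm4 genes (up to 49.0%) and none of 7 H3K36 methylation genes (up to 35.4%) had one. In the wider list of histone methyltransferases and demethylases 5 of 57 had one (8.77%, interval 3.81 to 18.9%), namely Prdm12, Prdm13, Prdm14, Prdm16 and Smyd1, none of which is a general H3K9 enzyme of ES cells by textbook knowledge. Prdm13, a neural transcription factor gene, had 74.5% of its coding bases in 4 members, and Prdm16, a regulator of brown fat, had 36.1% in 3. Of 13 pluripotency genes 1 held a member (7.69%, interval 1.37 to 33.3%, which includes the 13.2%). This was Prdm14, with a region of 600 bp over exons 2 and 3 of 7 (chr1:13114401-13115000) in a gene with 4800 bp of H3K36me3. Among a list of example genes (12 genes, taken from the original publication) 1 held a member (8.33%, interval 1.49 to 35.4%). This was Ankrd13a, with a region of 600 bp at exon 13 of 15 (chr5:115251601-115252200, 161 coding bases, 49.3% G+C), with 5600 bp of H3K36me3 elsewhere in the gene.

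In the broader C2H2 list, 57 of 471 annotated gene entries had a member (12.1%, interval 9.46 to 15.4%), near the 13.2% of all eligible genes. Entries can share a symbol, as Glis3 does among the 57. The genes given here are those with the most covered coding bases, so they are not typical of the list. Sall3, a transcription factor gene of limb and neural development, had 74.7% of its coding bases in 3 members, and Zfpm1 had the same share in 1.

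Members were unevenly distributed over the autosomes. There were 150 members per Mb of eligible coding sequence overall and a median of 143 per autosome, from 84.4 on chromosome 3 to 282 on chromosome 8 (360 members). Of noncoding bins, 5.32% were in H3K9me3 regions on chromosome 8, the highest share, and 1.32% on chromosome 2, the lowest. In coding bins the shares on these chromosomes were 9.32% and 2.61%, which were also the highest and the lowest. The ratio of coding to noncoding bins was 1.75 on chromosome 8 and ranged from 1.33 on chromosome 14 to 2.34 on chromosome 15. Chromosome 8 therefore had the highest share of bins in listed regions, in coding and noncoding sequence alike. The lists hold no read values, so this is not a measured level of the mark. Its cause, including the copy number of the chromosome in these cells, was not tested.

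**Figure D5:**
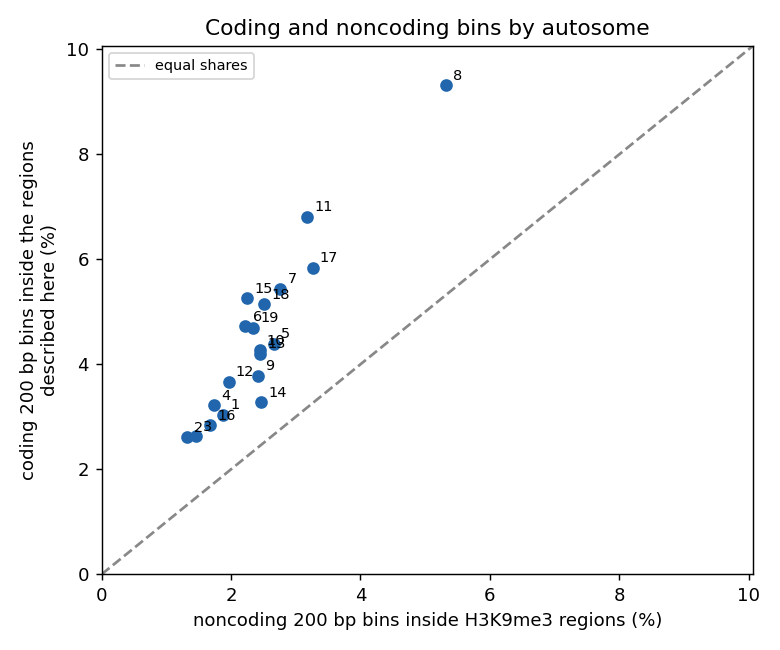
Percent of coding 200 bp bins inside members against percent of noncoding bins inside H3K9me3 regions, for the 19 autosomes (numbered points), with a dashed line of equal shares. All points lie above the line, and chromosome 8 is highest on both axes, at 9.32% and 5.32%.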

How the data were processed

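ChIP-seq was performed on WT and G34R mouse ES cells for H3K9me3 (antibody ab8898) and H3K36me3, with 1 library in each of 4 groups. According to the study's methods, reads were aligned to mm9 with Bowtie (version 1.0.0 in the submitters' processing notes) under a limit on multiple alignments, PCR duplicates were excluded, and SeqMonk counts over bins of 200 bp were normalised for total reads and matched in distribution between WT and G34R. Genic bins above the 95th percentile in either cell type were merged within 100 bp by BedTools (2.20.1). The methods then describe a filter on extreme read counts and one on size, worded as removing the larger regions, whereas the deposited H3K9me3 list holds none under 600 bp. How the size filter was applied is therefore unclear, and its part in the widths and in the trend with exon length was not tested. The authors deposited 1 list of regions per mark with chromosome, start and end only, so the values used here are positions, with no count, signal or p-value. The calling pooled WT and G34R cells, and a percentile threshold fixes roughly how much is listed. Whether bins with many alignments or of extreme G+C were under-called could not be examined.

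Genes were taken from GENCODE vM1 on NCBIM37. For each gene, the protein-coding transcript with the longest coding sequence defined the coding exons, which are numbered from the first coding exon. Eligible sequence was coding, autosomal and more than 1 kb from any transcript start. Shares of 200 bp bins inside regions were taken over bins free of H3K36me3. Exact copies of the central 50 bases were counted on both strands. Fingers and linkers were found by pattern in translated coding sequence. Shares carry 95% Wilson intervals and differences 95% Newcombe intervals, which cover counting error only. Python 3.11.15, numpy 2.4.6, pandas 2.3.3, scipy 1.17.1 and pysam 0.24.0 were used, and the code was tested on simulated data. All columns used hold positions of pooled samples, and 0 columns were left unmapped.

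The rule for members and the gene lists were chosen with earlier results of these data known. Genes were named by rule: the 10 with the most members, the 5 widest members and the 5 with the most coding bases in each exon class, the 2 genes of each family with the most covered coding bases, and list genes with a member. Some genes that the rule names are not reported here. Apc2, Col14a1 and Zfp775 were chosen for their sequence, after values were seen. Alternatives varied the distance from a start, the width limit, the coding overlap, the H3K36me3 exclusion, the definition of the last coding exon and copied sequence. Leaving out chromosome 8 was added after seeing the data.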

Additional observations from a re-analysis of the deposited data

How the results depend on the processing

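The 6 main values were recomputed under 12 alternatives, 1 of them (without chromosome 8) added after seeing the data. Of the 72 values, 50 stayed within the interval of the main value or within 1.5 times the count, and 22 moved. A change of sign was possible only for the G+C difference, where 0 occurred. The Zfp share of member genes went from below to above the 2.26% of eligible genes in 3 of the alternatives, given below. The intervals of the main value and of the value without the H3K36me3 exclusion include 2.26%. Required coding overlap had the largest effect. With at least 200 bp of coding sequence, 1642 members remained, 38.8% touched a last coding exon, the ratio of last to earlier coding bases was 2.83, 53.9% of member genes had H3K9me3 at their start, 3.17% were Zfp genes, and the G+C excess over coding bins was 4.85 percentage points. With coding sequence in most of the region (at least 50%), these were 687 members, 52.5%, a ratio of 4.32, 5.93% Zfp genes and 6.33 points. Both choices favour regions with much coding sequence, and thereby long exons, by construction. Beyond 500 bp from a start, the ratio was 1.91 and the share with H3K9me3 at the start 52.8%. Beyond 2 kb, the G+C excess was 2.33 points. With protein-coding starts only, the start share was 52.5% and the G+C excess 1.79 points. At most 2000 bp wide, the ratio was 1.91. Without the H3K36me3 exclusion, the start share was 45.6%, the Zfp share 2.51% and the G+C excess 1.78 points. With the last coding exon of any transcript, 28.9% of members touched one and the ratio was 1.97. The cause of these shifts was not tested. Values without chromosome 8, with no width limit, with no H3K36me3 region within 1 kb and with unique centres did not move by this measure. Pooled over exon lengths, the ratio stayed between 1.91 and 4.32 in all settings. No paired analysis was possible because each group had 1 library and the lists pool WT and G34R cells. Depth is unknown, so a region missing from a list is not shown to lack the mark.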
